A study of Mus musculus with 6 samples.

Results

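The genes described here encode the protein folding machinery of the endoplasmic reticulum (ER) and the stress pathways that adjust it. They were taken as a list of 36 gene symbols, each matched to the probe sets of the array that carry exactly that 1 symbol. Each probe set reads a transcript through several short probes. All 36 genes had at least 1 probe set, out of 18193 genes with such probe sets, and 83 of the 45101 probe sets belonged to them. The brightest probe set over all arrays stood for each gene.

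RNA was measured in colon cancer tumours of 3 IL8 transgenic mice, which carry the human gene, and of 3 wild-type control mice, on 6 Affymetrix arrays. All mice were of CBA/C57BL/6 strain background and were recorded as male, and the labels give no age. Human IL8 is a chemokine that attracts neutrophils. The sources used here give neither the promoter that drives the transgene nor the way the tumours were raised. Nor do they say how many tumours went into a sample, and the p-values cover only the spread between these samples.

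Proteins that are secreted or sit in membranes fold in the ER, where chaperones hold unfolded chains, lectins check sugar chains and disulfide isomerases pair cysteines. When unfolded protein builds up, the sensors IRE1, PERK and ATF6 start the unfolded protein response, which raises chaperone and degradation genes and slows translation. In the colon, goblet cells that make mucin and plasma cells that make antibody depend strongly on this system. Arrays measure RNA levels, so the splicing of Xbp1 RNA by IRE1, the kinase activity of PERK and the cleavage of ATF6 were not measured.

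The arrays differed in ways that touch these genes. Pairs of arrays correlated at 0.925 to 0.954 within the transgenic group and at 0.975 to 0.983 within the control group, across probe sets. Xist, the RNA of the inactive X chromosome, was high on all 3 transgenic arrays (12.27 to 12.89) and at background on all 3 control arrays (2.33 to 2.64). The Y-linked gene Eif2s3y was at 2.39 to 2.71 on transgenic and at 9.99 to 10.22 on control arrays, and Kdm5d and Uty were also under 4 on all transgenic and above 4 on all control arrays. The transgenic arrays thus went against the recorded male sex, and a difference between genotypes cannot be told apart from one between arrays with and without Xist. Transgenic array 2 carried squamous epithelium RNA, with all 11 measured squamous markers at 4 or more and Krtdap at 12.31, against 2.22 to 2.62 on the other arrays. On transgenic array 1 the Gapdh control probes at the 3′ end exceeded those at the 5′ end by 0.71, the smallest such value, while the other 5 arrays lay at 0.87 to 0.96. For Actb this value was 1.46, with the other 5 arrays at 1.66 to 1.82. Colon epithelium markers, such as Epcam and Cdx2, were at 4 or more on every array for all 10 genes of that list. All levels are log2 expression values, and 4 was taken as the lowest level that counts as detected.

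The promoters of many of the folding genes hold a short motif through which ATF6 and XBP1 are known to act, the ER stress response element (ERSE), made of CCAAT and CCACG with 9 free bases between them. A script searched both strands of RefSeq promoter windows (build GRCm38.p6, 250 bases before to 50 after a start), which were given for 31 of the 36 genes. The ERSE was present in 8 of these 31 genes, against 0.119% of all 32851 promoter windows. The related ERSE-II, ATTGG and CCACG with 1 free base between, was present in Dnajb11 and Herpud1 and in 0.0365% of all windows. The motif TGATGNAA, read by ATF4 with a C/EBP partner, was present in Asns, Chac1, Trib3 and Herpud1 and in 3.97% of all windows. The UPRE, TGACGTGG, matched no window of these genes and 0.676% of all windows. No 2 different motifs overlapped in these genes. A match is a description of the letters and not of a used site. The stretches below are of the ERSE genes and of Herpud1 and Asns. The ERSE genes, Syvn1 excepted, were lowest on 1 transgenic array, as described later, and Herpud1 and Asns were not. Folding genes with neither ERSE nor ERSE-II were also low on that array. Each stretch is read 5′ to 3′ on the strand of its gene, ends before the start, and has the fixed letters of the motif in capitals. Where the capitals begin with CGTGG the ERSE lies on the opposite strand.
Hspa5 (chr2:34771940-34772089, + strand): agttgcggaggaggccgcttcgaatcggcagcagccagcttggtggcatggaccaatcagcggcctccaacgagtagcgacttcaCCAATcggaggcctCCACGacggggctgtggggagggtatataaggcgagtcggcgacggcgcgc
Hsp90b1 (chr10:86705513-86705676, - strand): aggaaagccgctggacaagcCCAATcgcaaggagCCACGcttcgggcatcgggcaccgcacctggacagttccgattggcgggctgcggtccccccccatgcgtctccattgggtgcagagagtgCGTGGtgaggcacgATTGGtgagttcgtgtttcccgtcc
Calr (chr8:84847055-84847113, - strand): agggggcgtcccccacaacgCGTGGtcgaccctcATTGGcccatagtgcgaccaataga
Canx (chr11:50325780-50325838, - strand): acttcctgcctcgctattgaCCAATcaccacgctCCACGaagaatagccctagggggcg
Pdia6 (chr12:17266471-17266529, + strand): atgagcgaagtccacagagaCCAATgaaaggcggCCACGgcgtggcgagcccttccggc
Dnajc3 (chr14:118937807-118937865, + strand): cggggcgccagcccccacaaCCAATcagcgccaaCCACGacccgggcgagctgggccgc
Creld2 (chr15:88819500-88819558, + strand): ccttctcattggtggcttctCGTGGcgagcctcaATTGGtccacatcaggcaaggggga
Syvn1 (chr19:6046512-6046570, + strand): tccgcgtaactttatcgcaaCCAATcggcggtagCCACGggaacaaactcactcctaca
Herpud1 (chr8:94386357-94386407, + strand, ERSE-II): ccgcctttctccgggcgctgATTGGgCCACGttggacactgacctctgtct
Asns (chr6:7693210-7693252, - strand, TGATGNAA): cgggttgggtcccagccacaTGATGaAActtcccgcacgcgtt

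No ER folding or stress gene passed the test between transgenic and control tumours. Of the 36 genes, 34 passed the filter, a level of at least 4 on at least 3 arrays, and 0 of the 34 had an adjusted p under 0.05 (limma, adjusted by Benjamini-Hochberg across the 19310 probe sets that passed). The background was 0.0486% of the 10288 genes tested. This was 5 genes, namely Xist and the Y-linked Eif2s3y, Kdm5d and Uty, described above, and Ighm, an antibody gene. The count at an unadjusted p under 0.05 was also 0 of 34, against 5.82% of all genes tested. The smallest unadjusted p was 0.0527, for Ern1, and adjusted p ran from 0.806 to 0.988. Differences, transgenic minus control, ran from -0.49 for Sdf2l1 to 0.45 for Ern2. Lower values in transgenic tumours were seen for 24 of the 34 genes and higher values for 10, with a median difference of -0.09 beside -0.02 over all genes tested. Groups did not overlap for 2 genes, P4hb and Ern1, both lower. That is 5.88% of the 34, against 11.5% of all genes tested, of which 6.76% were lower.

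The precision was enough to bound most of these genes at their brightest probe sets. The 95% confidence interval of the difference lay between -1 and 1, less than 2-fold either way, for 24 of the 34 genes. The same held for 7114 of the 10288 genes tested. It lay between -0.5 and 0.5 for 6 genes, which were P4hb, Dnajc3, Xbp1, Derl1, Sec61b and Ssr1. The widest of these intervals reached -1.44, for Sdf2l1, and 1.30, for Ppp1r15a. Dimmer probe sets that passed the filter were less bounded, with intervals of -1.47 to 0.58 for 1 of Dnajc3 and -0.23 to 1.61 for 1 of Ssr1. Intervals at dimmer probe sets of Xbp1 and Derl1 also reached below -0.5.

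**Figure D1:**
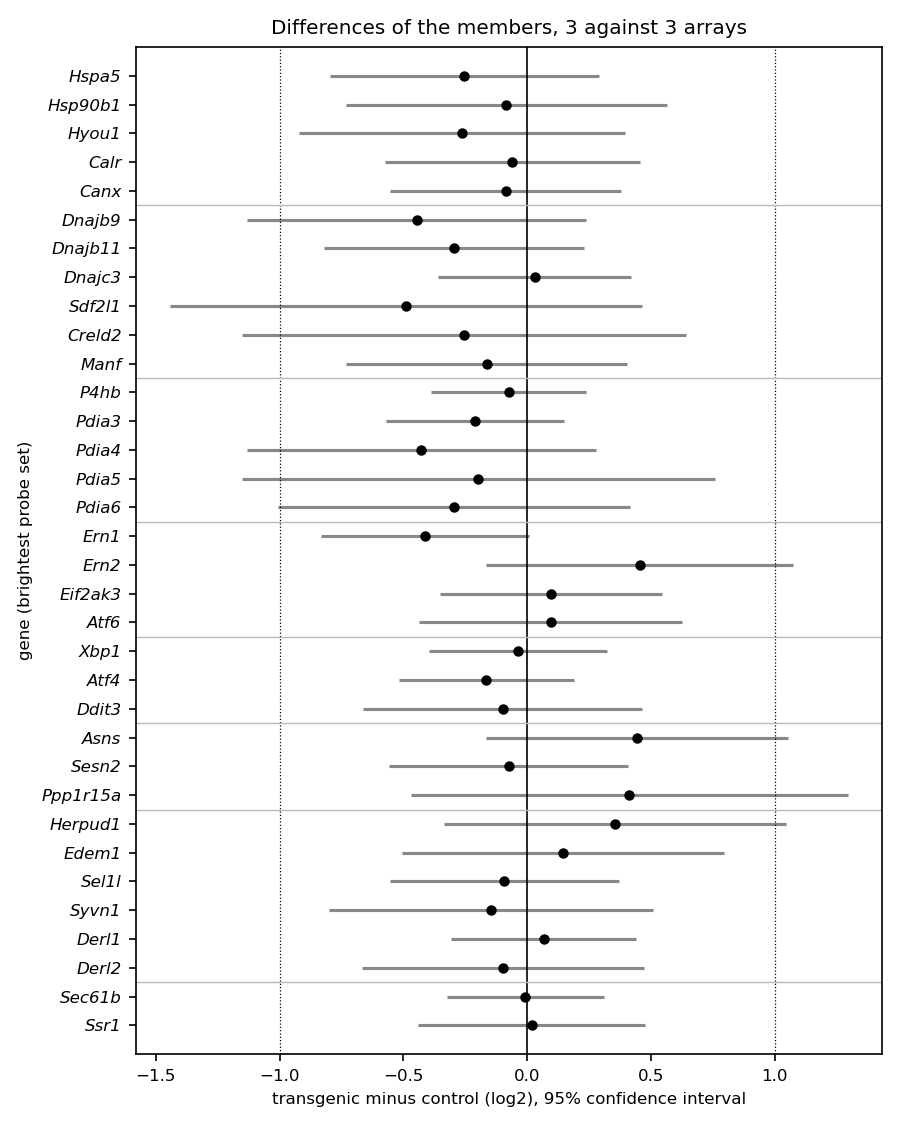
Difference between transgenic and control tumours (log2) for the 34 genes that passed the filter, with points for the difference of means of 3 arrays per group and lines for the 95% confidence interval of the limma fit. Every interval includes 0, dotted lines mark a 2-fold difference, and grey lines separate the roles named in the text.

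The 5 chaperones had means below the control level, none past the test, and were all lowest on transgenic array 1. Hspa5 encodes BiP, the main Hsp70 chaperone of the ER lumen, which also holds the stress sensors inactive. It was at 12.93, 13.19 and 13.66 on transgenic arrays 1, 2 and 3, against 13.64, 13.56 and 13.34 on control arrays 1, 2 and 3. Transgenic arrays 1 and 2 lay below all control arrays, while transgenic array 3 lay above them, so the groups overlapped. The difference was -0.25 ± 0.22 (SE, n = 3 per group, limma adjusted p 0.825). Each SE is that of the limma fit, which draws the variance of a probe set towards that of all probe sets tested.

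Hsp90b1, which encodes the ER form of Hsp90 (GRP94), averaged 12.00 ± 0.49 in transgenic and 12.08 ± 0.15 in control tumours (SD, n = 3 each). Hyou1, a large chaperone that exchanges nucleotide on BiP, averaged 6.02 ± 0.49 in transgenic and 6.29 ± 0.18 in control tumours. The lectin chaperones that hold newly made glycoproteins, calreticulin (Calr) and calnexin (Canx), differed by -0.06 ± 0.21 and -0.09 ± 0.19 (SE). For each of these chaperones the transgenic group spread wider than the control group.

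Co-chaperones, which deliver substrates to BiP or set its cycle, gave the lowest difference of all members. Sdf2l1, a partner of the J protein Dnajb11, was at 8.25, 9.11 and 9.85 on transgenic arrays, against 9.65, 9.60 and 9.42 on control arrays. Its transgenic values spanned 1.60, with array 1 lowest and array 3 highest of all 6, and its control values spanned 0.23. The difference of -0.49 ± 0.39 (SE) did not pass (limma adjusted p 0.815).

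Dnajb9 encodes a J protein that keeps IRE1 in check. It was at 9.12, 9.54 and 10.04 on transgenic arrays, against 10.28, 10.07 and 9.69 on control arrays. Only transgenic arrays 1 and 2 lay below the controls, and the difference was -0.45 ± 0.28 (SE; limma adjusted p 0.806). Creld2, an ER stress-inducible protein with epidermal growth factor-like repeats, averaged 10.21 ± 0.68 in transgenic and 10.47 ± 0.32 in control tumours (SD, n = 3 each). Manf, a secreted survival factor that binds BiP, averaged 11.77 ± 0.42 in transgenic and 11.93 ± 0.08 in control tumours. Dnajb11 differed by -0.30 ± 0.22 (SE). Dnajc3, which encodes the PERK inhibitor p58IPK, was the 1 co-chaperone with a positive difference at its brightest probe set, 0.03 ± 0.16. The 3 dimmer Dnajc3 probe sets that passed the filter were lower, at -0.45 to -0.08.

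The 5 protein disulfide isomerases had means below the control level and unequal spread. P4hb, the classical isomerase and a subunit of collagen prolyl hydroxylase, was at 12.29, 12.21 and 12.27 on transgenic arrays, against 12.34, 12.32 and 12.33 on control arrays. These groups did not overlap, yet the difference was only -0.08 ± 0.13 (SE, limma adjusted p 0.908). The SDs were 0.04 in transgenic and 0.01 in control tumours, so this SE reflects the variance of all probe sets more than the spread of P4hb. Pdia3, which works on glycoproteins with calnexin and calreticulin, differed by -0.21 ± 0.15.

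Pdia5 was at 7.53, 8.73 and 9.06 on transgenic arrays, against 8.74, 8.51 and 8.68 on control arrays. The low value belonged to array 1 alone, and array 3 was the highest of all. Pdia4 and Pdia6 were below every control on transgenic arrays 1 and 2 and above every control on array 3, with transgenic values from 9.48 to 10.60 and from 9.80 to 10.92, against 10.39 to 10.58 and 10.58 to 10.76 in controls. The differences were -0.43 ± 0.29 for Pdia4, -0.20 ± 0.39 for Pdia5 and -0.29 ± 0.29 for Pdia6, and none of the isomerases passed.

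**Figure D2:**
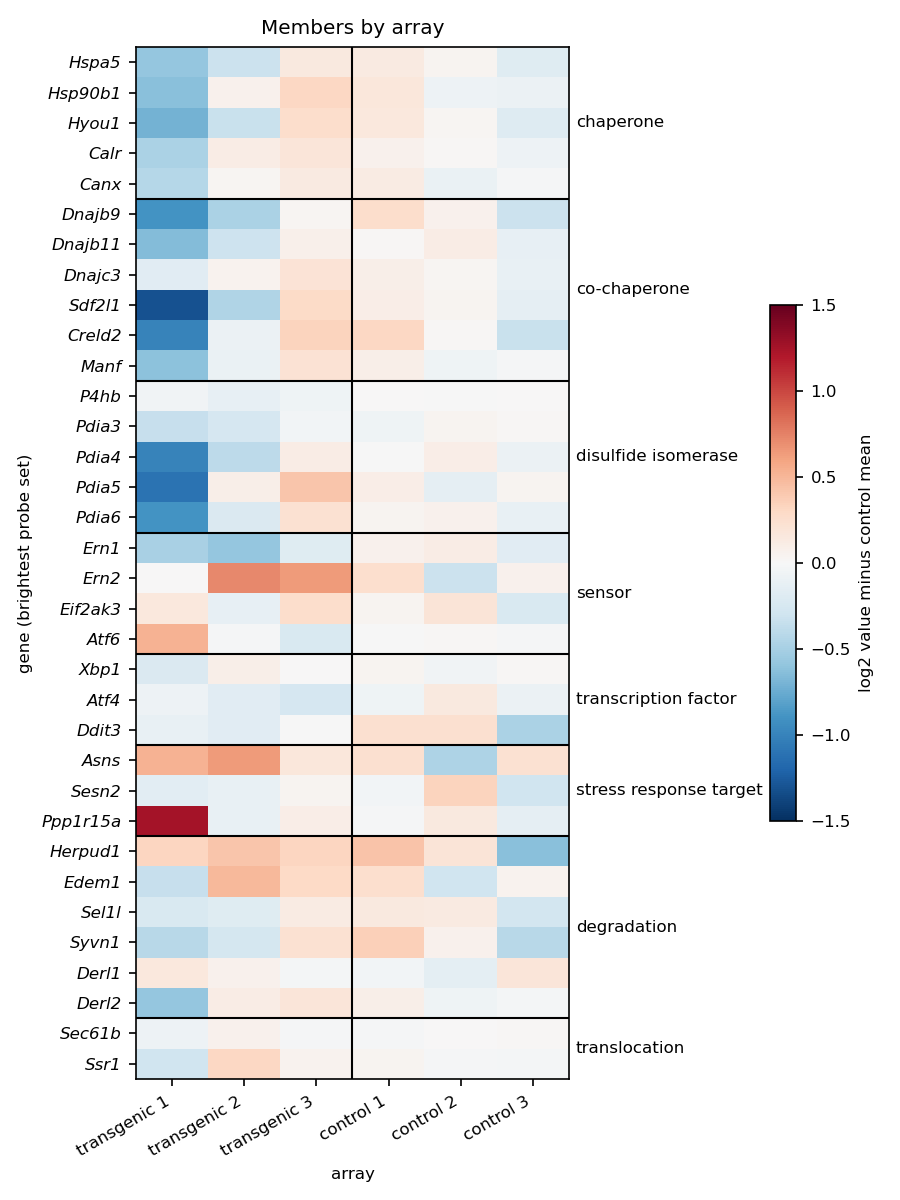
Log2 value minus the control mean for each of the 34 genes (rows, grouped by role) on each array (columns, transgenic left of control), with blue for lower and red for higher. The folding genes in the upper 3 blocks, P4hb excepted, are lowest on transgenic array 1, where Sdf2l1 was at 8.25. The translocation genes Sec61b and Ssr1 are also lowest there, while most sensors, transcription factors and degradation genes are not. Of the 6 degradation genes, 5 are lowest there among the transgenic arrays only.

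The 16 folding genes (chaperones, co-chaperones and isomerases) mostly shared their lowest and highest transgenic arrays. Of the 16, 15 were lowest of all 6 arrays on transgenic array 1, P4hb being the exception, against 26.9% of all genes tested. The highest of the 3 transgenic arrays was array 3 for 15 of the 16, against 29.4% of all genes tested. Set against the control mean, they averaged -0.68, -0.17 and 0.18 on transgenic arrays 1, 2 and 3, against 0.10, 0.01 and -0.11 on control arrays 1, 2 and 3. Over all genes tested, the same mean was -0.07, -0.07 and 0.01 on the transgenic arrays. The 18 other genes that passed the filter averaged -0.00, 0.07 and 0.10 on the transgenic arrays. Their median on transgenic array 1 was -0.09, against -0.64 for the folding genes. Of the 18, 5 were lowest of all arrays there, and 10 were lowest of the 3 transgenic arrays there. All 16 folding genes had a wider range among transgenic than among control arrays, as did 70.3% of all genes tested, and their median range was 0.88 in transgenic and 0.23 in control tumours. The 16 were grouped after their values had been seen, so these counts are a description.

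Leaving out transgenic array 1 brought the median of the folding genes close to 0. Their median difference was -0.23 with all arrays and -0.02 without transgenic array 1, when 8 of 16 were lower. It was -0.47 without transgenic array 3, when all 16 were lower. The median over all 34 genes was 0.01 without transgenic array 1, -0.14 without transgenic array 2, -0.19 without transgenic array 3, -0.03 without control array 1 and -0.15 without control array 3. None of the 34 genes passed in any of these fits.

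Several other measures were also lowest on transgenic array 1. Besides the 3′ to 5′ differences above, the 10 goblet cell markers, such as Muc2 and Tff3, had a mean level of 7.93 on transgenic array 1 and 11.1 and 10.8 on transgenic arrays 2 and 3, against 10.2, 8.41 and 8.99 on control arrays. Of the 10, 7 were lowest of all arrays on transgenic array 1, and Fcgbp was at 6.77 there, against 9.15 to 11.36 on control arrays. Agr2 and Retnlb were lowest on control array 2 and Clca3a1 on control array 3. Proliferation markers averaged 8.82 on transgenic array 1 and 9.68 to 10.1 on the other 5 arrays, and fibroblast markers 8.64 against 9.62 to 10.1. Smooth muscle markers averaged 6.09 on transgenic array 1 and 10.2 and 9.12 on transgenic arrays 2 and 3. Their control array means were 6.57 to 7.48. Macrophage markers had their lowest mean on transgenic array 2. Of these 9 markers, 5 were lowest of all arrays there and 4 on transgenic array 1. They averaged 7.44, 6.78 and 8.19 on transgenic arrays, against 8.38, 8.80 and 8.99 on control arrays. The part of these markers in the folding gene values was not tested. In tissue RNA, fewer cells of a type and less RNA per cell cannot be told apart.

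**Figure D3:**
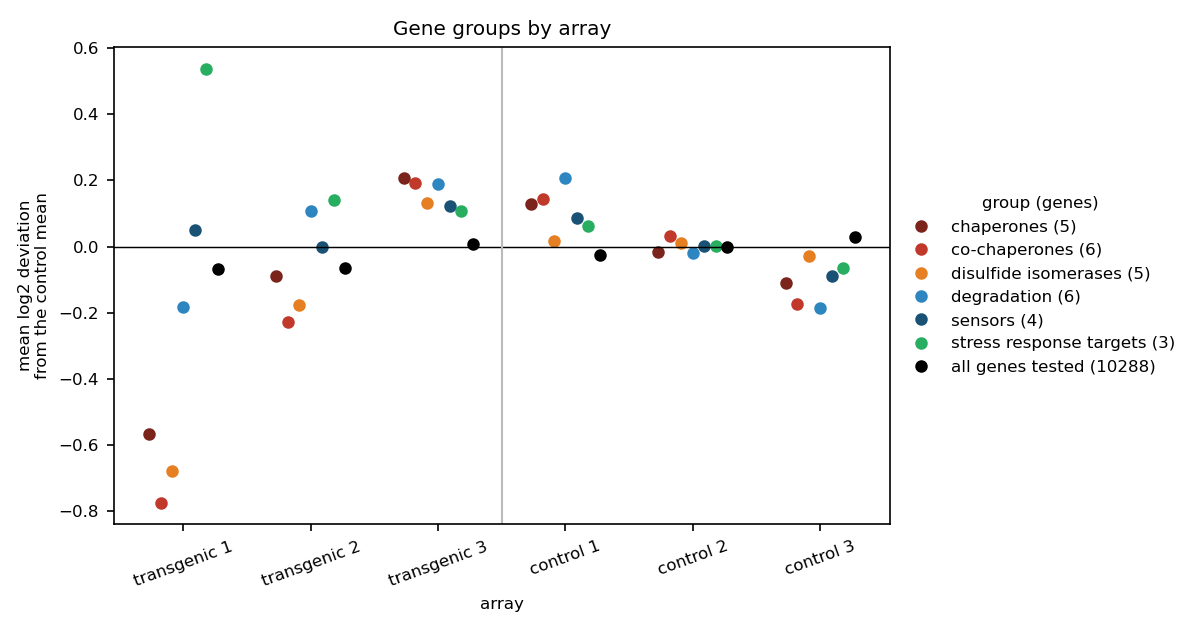
Mean log2 deviation from the control mean for groups of genes on each array, with transgenic arrays left of control arrays and the number of genes in brackets. Chaperones, co-chaperones and isomerases lie at -0.57, -0.77 and -0.68 on transgenic array 1, where all genes tested lie at -0.07 and the stress response targets at 0.54.

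Grouped by promoter, folding genes with and without the ERSE were both low on transgenic array 1. The 8 folding genes whose window held an ERSE or ERSE-II lay at -0.60, -0.09 and 0.20 on transgenic arrays 1, 2 and 3. The 6 folding genes with a window and neither motif, such as Sdf2l1, Pdia4 and Dnajb9, lay at -0.78, -0.27 and 0.13. Of the ERSE genes, 7 of 8 were lowest of all arrays on transgenic array 1. The exception was the degradation gene Syvn1, at 8.95 on that array and 8.94 on control array 3.

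The sensors of ER stress went in different ways. Ern1 encodes IRE1α, the kinase and RNase that splices Xbp1 RNA. It was at 8.82, 8.72 and 9.13 on transgenic arrays, against 9.37, 9.41 and 9.14 on control arrays. The groups did not overlap, but transgenic array 3 and control array 3 were almost level. The difference was -0.41 ± 0.17 (SE; limma adjusted p 0.806), and a second, dimmer probe set differed by -0.19.

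Ern2 encodes IRE1β, the form of the sensor found in mucosal epithelium and known from goblet cells. It was at 8.61, 9.32 and 9.24 on transgenic arrays, against 8.86, 8.29 and 8.67 on control arrays. Transgenic arrays 2 and 3 were above every control, and array 1 lay within the control range. The difference was 0.45 ± 0.26 (SE; limma adjusted p 0.806) and 0.68 without transgenic array 1. The 3 arrays with the highest goblet marker levels, transgenic 2, transgenic 3 and control 1, were also the 3 highest for Ern2. Smooth muscle and enteroendocrine markers also had their 3 highest mean levels on these arrays, so the ranking is not particular to goblet cells. A link between any of these markers and Ern2 was not tested.

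Eif2ak3 encodes PERK, the kinase that slows translation. It was at 10.60, 10.32 and 10.71 on transgenic arrays, against 10.49, 10.64 and 10.22 on control arrays, a difference of 0.10 ± 0.19 (SE). Atf6, the sensor that is cut to release a transcription factor, was at 9.0, 8.46 and 8.25 on transgenic arrays, against 8.47, 8.50 and 8.46 on control arrays. The groups overlapped for Eif2ak3 and for Atf6, and Atf6 was high on transgenic array 1, where most folding genes were lowest. The 3 kept Atf6 probe sets differed by 0.09 to 0.30, and at the dimmest, with 4.81, 4.58 and 4.45 on transgenic arrays, against 4.34, 4.35 and 4.26 on control arrays, the groups did not overlap.

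The transcription factors downstream of the sensors differed by -0.17 to -0.04, and 0 of 3 passed. Xbp1, the target of IRE1, was at 12.19, 12.50 and 12.42 on transgenic arrays, against 12.45, 12.35 and 12.42 on control arrays, a difference of -0.04 ± 0.15 (SE). Atf4, whose translation PERK favours, was at 10.33, 10.24 and 10.15 on transgenic arrays, against 10.34, 10.55 and 10.32 on control arrays. Its difference was -0.17 ± 0.15 at the brightest probe set and 0.13 at the other that passed the filter. Ddit3 encodes CHOP, a factor of lasting stress. Its level was 6.41, 6.35 and 6.52 on transgenic arrays, against 6.77, 6.76 and 6.05 on control arrays, and the transgenic values lay inside the control range.

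Targets of the ATF4 branch showed no common direction. Asns, asparagine synthetase, was at 9.66, 9.77 and 9.30 on transgenic arrays, against 9.37, 8.67 and 9.36 on control arrays. Transgenic arrays 1 and 2 lay above every control and array 3 lay below control arrays 1 and 3, with a difference of 0.44 ± 0.25 (SE; limma adjusted p 0.806). The second Asns probe set gave 0.41, and without control array 2 the difference was 0.21.

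Ppp1r15a, which encodes the phosphatase subunit GADD34 that restores translation, was at 5.38, 4.02 and 4.24 on transgenic arrays, against 4.12, 4.28 and 4.01 on control arrays. The difference of 0.41 ± 0.36 (SE) was -0.00 without transgenic array 1. Sesn2, a stress-induced regulator of mTORC1, was at 4.57 to 4.78 in transgenic and 4.43 to 5.06 in control tumours. Chac1, a glutathione-degrading enzyme, was under 4 on every array, at 3.31 to 3.59 in transgenic and 3.13 to 3.69 in control tumours. Trib3, a pseudokinase that restrains ATF4, was at 4.33, 4.28 and 3.60 on transgenic arrays, against 3.82, 3.37 and 3.86 on control arrays, and did not pass the filter. Chac1 and Trib3 were therefore not tested, and 3 of the 5 targets were.

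At their brightest probe sets, the 6 degradation genes, which return misfolded proteins to the cytosol, were higher for 3 and lower for 3. Herpud1, which assembles the degradation complex, was at 10.54, 10.64 and 10.54 on transgenic arrays, against 10.65, 10.41 and 9.60 on control arrays. Its difference of 0.35 ± 0.29 (SE; limma adjusted p 0.815) rested on the low control array 3 and was 0.04 without it. Syvn1, the ubiquitin ligase Hrd1, and its partner Sel1l were also lowest on control array 3, at 8.94 and 9.56, and differed by -0.15 ± 0.27 and -0.09 ± 0.19. Of the 11 plasma and B cell markers with a probe set, 3 were under 4 on every array, and 5 were lowest of all arrays on control array 3, among them Jchain (11.15) and Mzb1 (5.28), while Sdc1 was highest there (12.51). The mean level of the list was 6.84 to 7.78 on transgenic arrays, against 6.62, 6.66 and 6.19 on control arrays 1, 2 and 3. The gene for the IgM heavy chain, Ighm, was at 9.73 to 11.64 on transgenic and 3.36 to 4.35 on control arrays (limma adjusted p 0.0316), and without it the mean was 6.53 to 7.39 on transgenic and 6.37 to 6.95 on control arrays. Their part in these values was not tested.

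Edem1, which picks out trimmed glycoproteins, differed by 0.15 ± 0.27 (SE) at its brightest probe set and by -0.18 at its other. The channel components Derl1 and Derl2 differed by 0.07 ± 0.15 and -0.10 ± 0.23 at their brightest probe sets. The 3 dimmer Derl1 probe sets were lower, at -0.21 to -0.16. For Sel1l, lower at its brightest probe set, 1 dimmer probe set was higher, at 0.42. Sec61b, a subunit of the translocation channel, was at 12.71, 12.84 and 12.77 on transgenic arrays, against 12.77, 12.78 and 12.79 on control arrays. Its difference of -0.01 ± 0.13 was the smallest of all members. Ssr1, part of the translocon-associated complex, differed by 0.02 ± 0.19 at its brightest probe set.

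**Figure D4:**
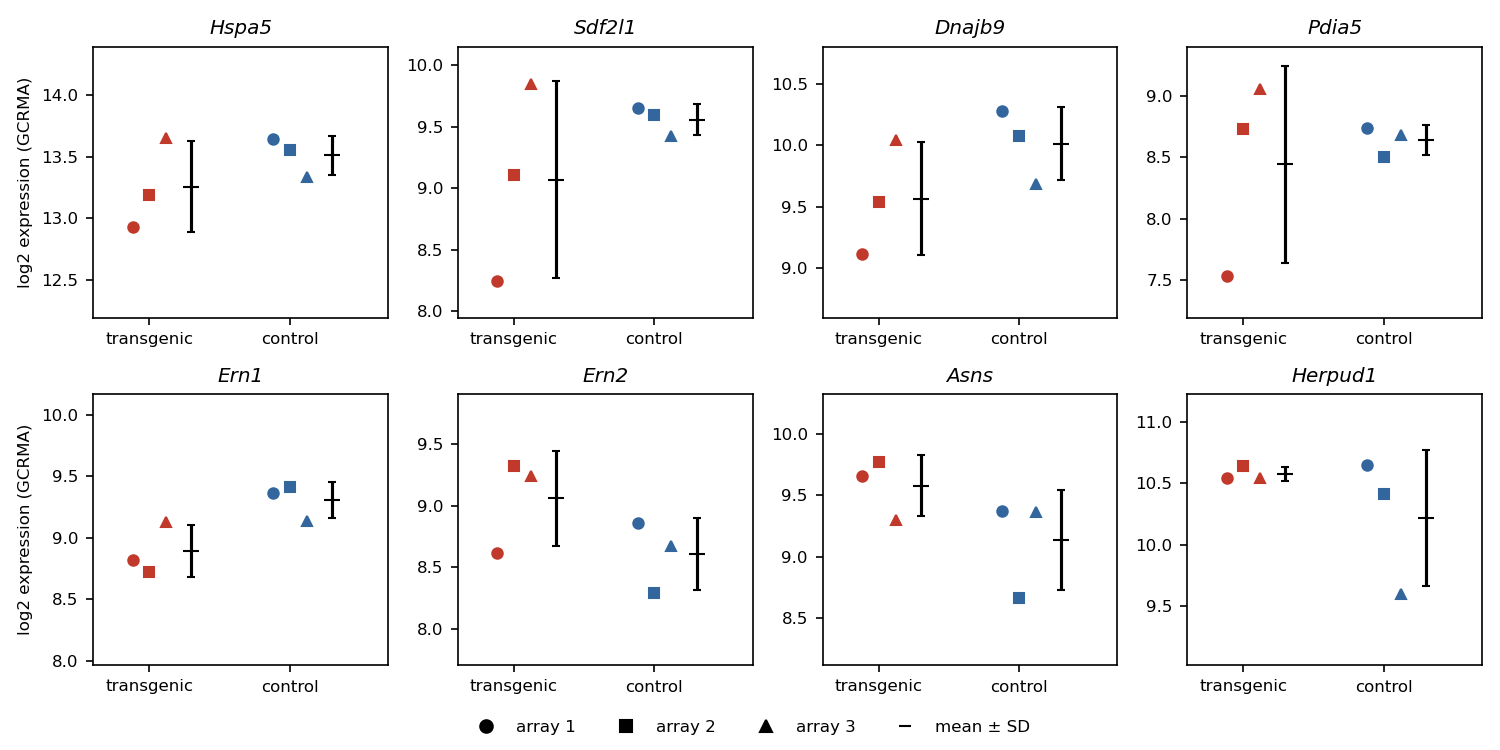
Log2 expression of 8 genes on each array, transgenic left of control, with symbols for the array number and bars for mean ± SD (n = 3 per group). Hspa5, Sdf2l1, Dnajb9 and Pdia5 are lowest on transgenic array 1, at 12.93, 8.25, 9.12 and 7.53, Ern2 is highest on transgenic array 2, at 9.32, and Herpud1 is lowest on control array 3, at 9.60.

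Probe sets of the same gene were compared where several passed the filter. In all, 64 of the 83 probe sets passed, 0 of them had an adjusted p under 0.05 against 0.057% of all probe sets, and 0 had an unadjusted p under 0.05 against 5.5%. Groups did not overlap for 4 of the 64, 1 each of P4hb, Ern1, Atf6 and Ssr1, against 10.9% of all probe sets. For 11 of 17 genes with several kept probe sets the differences had 1 sign, as for Hspa5 (-0.25 to -0.02) and Xbp1 (-0.12 to -0.04). The signs were mixed for Canx, Dnajc3, Atf4, Edem1, Sel1l and Derl1. Dnajc3 ran from -0.45 to 0.03 and Sel1l from -0.29 to 0.42. Ssr1 reached 0.69 at a dimmer probe set, which was at 7.64, 6.34 and 6.27 on transgenic arrays, against 6.20, 5.95 and 6.03 on control arrays.

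Other genes of the pathway did not pass either. Of 144 further genes in 7 lists, 132 passed the filter and 0 had an adjusted p under 0.05, against 0.0486% of all genes tested. An unadjusted p under 0.05 was found for 3 of them, Qsox1, Dnajc25 and Casp12, which is 2.27%, against 5.82% of all genes tested. The median difference was -0.05, with 54 higher and 78 lower. Among 15 glycan and lectin quality control genes, which trim and check sugar chains, 0 passed and 12 were lower, and 12 were lowest of all arrays on transgenic array 1, against 26.9% of all genes tested. Among 17 translocation genes, 19 further isomerases, 13 co-chaperone and retention genes, 20 degradation genes, 20 signalling genes and 28 targets of the integrated stress response, 0 passed in each, and the medians lay between -0.12 and 0.04. In these lists, in the order given, 6, 9, 7, 6, 6 and 8 genes were lowest of all arrays on transgenic array 1. Over all 132 genes it was 54, or 40.9%.

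Groups did not overlap for 9 of the 132 genes, 6.82% against 11.5% of all genes tested. Qsox1, a sulfhydryl oxidase, was at 7.68, 7.42 and 7.61 on transgenic arrays, against 7.19, 7.23 and 7.08 on control arrays, a difference of 0.40 ± 0.15 (SE; limma adjusted p 0.806). Vldlr, a lipoprotein receptor induced by ATF4, was at 11.35, 9.61 and 9.02 on transgenic arrays, against 9.0, 8.43 and 8.90 on control arrays. Its difference of 1.22 ± 0.59 was 0.54 without transgenic array 1. Creb3l2, a relative of ATF6, was at 8.40, 6.92 and 8.22 on transgenic arrays, against 8.42, 8.68 and 8.61 on control arrays. Its difference was -0.72 ± 0.40, and -0.26 without transgenic array 2, the array with squamous markers.

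The co-chaperone genes Dnajc25 and Sdf2 differed by 0.49 ± 0.18 and 0.24 ± 0.15, and Slc7a1, an amino acid transporter, by 0.16 ± 0.15. Dnajc25 lay close to the detection level of 4, at 3.87 to 4.78. The ATPase Vcp and the ubiquitin-conjugating enzyme Ube2j1 of the degradation pathway differed by -0.21 ± 0.15 and -0.19 ± 0.14, and the channel subunit Sec61a1 by -0.08 ± 0.13. Casp12, an ER-linked caspase named after its value was seen, was at 7.09, 6.44 and 6.83 on transgenic arrays, against 7.03, 8.196 and 8.37 on control arrays. The groups overlapped, and the difference was -1.08 ± 0.39 (limma adjusted p 0.806).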

How the data were processed

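Per the submitters' processing notes, the authors computed the deposited log2 values with GCRMA, a method of background correction, normalization and summary of probes. The sources used here give no GCRMA version and no genome build. That the scale is log2 follows from the range of the values, and arrays had medians of 3.31 to 3.36. Probe sets were named from the platform's annotation table, and the 64 AFFX controls were left out. Groups came from the sample titles. They were compared in limma 3.58.1 (R 4.3.3) by lmFit and eBayes with no block, as transgenic minus control, on 19310 probe sets at 4 or more on at least 3 arrays. A gene counted as tested where its brightest probe set passed. The 3 arrays per group limit the precision. The fit was tested on simulated data.

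The genes, roles and lists were chosen with earlier results of these data known. All 36 genes are named. Values on every array were set for the sensors, Hspa5, Xbp1, Atf4 and Ddit3, and for any of the 36 with an unadjusted p under 0.05 or non-overlapping groups differing by 0.5. Values of other genes were added after they had been seen. Up to 3 non-overlapping genes per pathway list were named. RefSeq promoters are of GRCm38.p6. Marker lists of pancreatic acinar, neutrophil, smooth muscle, endothelial and enteroendocrine cells were also summarised. Their mean levels on transgenic and then control arrays were 4.05 to 4.51 and 4.58 to 4.79 (acinar), 6.50 to 7.19 and 6.59 to 6.82 (neutrophil), 6.09 to 10.2 and 6.57 to 7.48 (smooth muscle), 4.93 to 5.27 and 5.45 to 5.68 (endothelial), and 3.63 to 8.42 and 3.61 to 5.67 (enteroendocrine).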

Additional observations from a re-analysis of the deposited data

How the results depend on the processing

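None of the 34 genes passed the threshold under any alternative, which were no filter, a filter at 6, quantile normalization, arrays centred on their median, values under 4 set to 4, a trended robust prior, array weights, a replicate block, the mean of a gene's probe sets and leaving out each array in turn. Their smallest adjusted p (limma) was 0.383, without transgenic array 3, when 4 genes, Dnajb9, Sdf2l1, Pdia4 and Ern1, had an unadjusted p under 0.05. Ern1 was also under 0.05 unadjusted with no filter, the filter at 6, values under 4 set to 4, the trended robust prior and without control array 3. Ern2 was under 0.05 unadjusted with array weights and without transgenic array 1. The count over all probe sets was 11 as reported and 3 to 7 with 1 array left out. The median over the 34 genes ran from -0.19 to 0.01 with 1 array left out, and that over the 16 folding genes, an alternative added after seeing the data, from -0.47 to -0.02.

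The labels state no pairing of arrays by replicate number. Deviations of same-numbered arrays from their group means correlated at -0.27, -0.28 and -0.05, and those of differently numbered arrays at -0.06 to 0.30. Deviations of 3 arrays from their own mean are tied to each other, so these values cannot decide whether arrays were paired. With the replicate block, 8 probe sets and 0 of the 34 genes passed, the median difference of the 34 stayed at -0.09 and their smallest adjusted p was 0.943.

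Array weights gave transgenic array 1 the lowest weight, 0.356, and left the median at 0.00 over the 34 genes and at -0.02 over the folding genes. They turned the sign for Hsp90b1 (0.14), Calr (0.070), Canx (0.057), Creld2 (0.027), Manf (0.060), Pdia5 (0.19), Atf6 (-0.095), Xbp1 (0.0079) and Derl2 (0.073). Averaging probe sets turned Dnajc3 (-0.16), Edem1 (-0.020) and Derl1 (-0.13), and centring turned Sec61b (0.0034). With 1 array left out, the sign turned in at least 1 fit in these ranges: -0.28 to 0.19 for Hsp90b1, -0.18 to 0.15 for Calr, -0.20 to 0.080 for Canx, -0.059 to 0.13 for Dnajc3, -0.55 to 0.12 for Creld2, -0.36 to 0.061 for Manf, -0.51 to 0.26 for Pdia5, -0.56 to 0.0058 for Pdia6, -0.020 to 0.21 for Eif2ak3, -0.12 to 0.26 for Atf6, -0.10 to 0.050 for Xbp1, -0.34 to 0.023 for Ddit3, -0.22 to 0.092 for Sesn2, -0.0042 to 0.68 for Ppp1r15a, -0.023 to 0.39 for Edem1, -0.36 to 0.032 for Syvn1, -0.0048 to 0.16 for Derl1, -0.24 to 0.14 for Derl2, -0.043 to 0.024 for Sec61b, -0.13 to 0.18 for Ssr1. The cause of these turns was not tested; none of these genes had been called. Levels near 4 limit Ppp1r15a, Sesn2, Trib3 and Chac1.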
